A study of Mus musculus with 20 samples.

Results

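The transcripts described here encode the troponins of striated muscle, the 2 striated-muscle actins and the muscle form of creatine kinase. Members were the 10 genes, of 27962 gene names on the array, Tnnt1, Tnnt2, Tnnt3, Tnni1, Tnni2, Tnnc1, Tnnc2, Acta1, Actc1 and Ckm, found by matching the gene name printed on the array, and every array probe that is not a control and carries one of these names was taken. They had 13 of the 41174 array probes. A probe was tested where 10 or more of the 20 arrays read it well above background, which 26063 probes and 12 of the 13 did. The untested probe was the second Tnnt2 probe, well above background on 1 array. Whole tracheas were compared in 4 groups of 5 arrays, wild-type and Myd88KO mice, uninjured or 3 days after 2% polidocanol, a detergent that strips the airway lining, and the comparison asks how the tissue responds to injury with and without Myd88, an adaptor protein of Toll-like receptor signalling.

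Mice of all 4 groups carried a C57/Bl6 background, and the sample labels give an age of 4 months, whereas the study's methods give 4 to 6 months. Myd88KO mice lacked the gene in every cell from conception and were bred knockout to knockout beside a separate wild-type colony, so that genotype and colony cannot be told apart. Both sexes were used and the sex behind each array was not taken from the labels. Excess connective tissue was trimmed from each trachea before RNA was made, and how much attached muscle stayed with it was not given in the sources used here.

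Striated muscle contracts when calcium binds troponin C, the binding subunit of the troponin complex, which releases the hold of troponin I, the inhibitory subunit, while troponin T ties the complex to tropomyosin on the actin filament. Each subunit has forms particular to fast skeletal, slow skeletal or cardiac muscle, and creatine kinase regenerates the ATP that contraction uses. The wall of the trachea holds smooth muscle, whose actin is a different gene and which lacks troponin, while striated muscle lies against the outside of the trachea in the neck.

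Promoters are shown for the members whose levels the results below turn on and for both striated actins, so that the letters before their start sites can be read beside their values. The 250 bases before the start came from a RefSeq table of assembly GRCm38.p6, which held 8 of the 10 members in 10 windows, with a pair of starts each for Tnnt2 and Tnni1, of which the first is printed. Capitals mark the letters of an E-box (CANNTG, bound by myogenic factors), a TATA box (TATAAA), an M-CAT element (CATTCC) or a CArG box, searched on both strands. The windows are chr1:135836084-135836333 (plus strand) for Tnnt2, chr1:135799171-135799420 (plus) for Tnni1, chr14:31208062-31208311 (plus) for Tnnc1, chr2:164779735-164779984 (minus) for Tnnc2, chr8:123894776-123895025 (minus) for Acta1 and chr2:114052876-114053125 (minus) for Actc1.
Tnnt2: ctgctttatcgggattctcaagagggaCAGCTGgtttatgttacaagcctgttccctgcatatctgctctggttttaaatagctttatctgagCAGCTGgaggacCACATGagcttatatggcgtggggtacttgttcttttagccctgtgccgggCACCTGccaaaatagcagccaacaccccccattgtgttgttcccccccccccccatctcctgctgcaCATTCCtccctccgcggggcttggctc
Tnni1: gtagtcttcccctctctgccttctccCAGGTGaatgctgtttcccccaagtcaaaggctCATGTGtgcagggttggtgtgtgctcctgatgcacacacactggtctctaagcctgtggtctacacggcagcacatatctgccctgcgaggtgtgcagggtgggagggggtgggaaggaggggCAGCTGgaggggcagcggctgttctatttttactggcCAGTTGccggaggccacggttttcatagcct
Tnnc1: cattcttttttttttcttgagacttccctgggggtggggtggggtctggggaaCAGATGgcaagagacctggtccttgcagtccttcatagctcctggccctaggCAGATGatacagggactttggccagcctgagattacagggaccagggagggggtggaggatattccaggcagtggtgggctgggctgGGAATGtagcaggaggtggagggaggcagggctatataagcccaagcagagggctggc
Tnnc2: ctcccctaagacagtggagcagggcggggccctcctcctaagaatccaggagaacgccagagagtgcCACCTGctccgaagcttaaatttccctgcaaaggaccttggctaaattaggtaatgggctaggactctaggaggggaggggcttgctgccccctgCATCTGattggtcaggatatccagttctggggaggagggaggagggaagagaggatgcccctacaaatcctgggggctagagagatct
Acta1: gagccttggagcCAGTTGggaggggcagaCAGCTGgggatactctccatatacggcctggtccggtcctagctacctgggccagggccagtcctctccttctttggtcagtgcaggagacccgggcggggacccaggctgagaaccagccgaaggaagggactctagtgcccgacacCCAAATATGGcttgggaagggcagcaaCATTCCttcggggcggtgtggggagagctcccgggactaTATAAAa
Actc1: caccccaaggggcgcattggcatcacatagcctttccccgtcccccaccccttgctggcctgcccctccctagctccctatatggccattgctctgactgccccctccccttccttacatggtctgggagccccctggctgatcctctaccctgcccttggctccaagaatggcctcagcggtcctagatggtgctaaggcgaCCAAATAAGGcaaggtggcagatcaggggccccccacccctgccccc

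An E-box stood in the windows of 7 of the 8 members, the exception being Actc1, and in 66.2% of all 32851 promoters of the table. A CArG box, the site of serum response factor, was found only in the 2 actin genes among these members and in 1.47% of all promoters. M-CAT letters were present for Tnnt2, Tnnc1 and Acta1, against 12.6% of all promoters, and a TATA box for Tnnt1 and Acta1, against 12.4%. A MEF2 site was in none of the members' windows and in 2.92% of all promoters. No match overlapped one of another motif, and the matches describe letters in a window and say nothing of whether a factor was bound.

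Levels are log2 intensities relative to the 75th percentile of the same array, so that 0 lies at that percentile and a step of 1 is a doubling. Between 57.5% and 67.8% of spots were well above background on each array, and arrays of 1 group correlated at 0.925 to 0.990. Each of the 5 slides held 1 array of each group and the slides were scanned on 2 days. The Myd88 probe was lower in injured Myd88KO than in injured wild-type tracheas, by -0.77 (SE 0.141, limma adjusted p = 0.00824, and 0.0180 with the slide as a block), while the difference without injury was -0.21 (adjusted p = 1), and where the probe lies relative to the deleted sequence was not determined. Myd88KO injured replicate 5 had the lowest share of spots above background and the most outlier spots.

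Injury of wild-type tracheas lowered 1 of the 12 member probes, the cardiac troponin T gene Tnnt2, at a limma adjusted p under 0.01, where 5.26% of all tested probes passed and 2.03% passed in the lower direction. It was also the one member whose wild-type groups did not overlap, against 12.6% of all probes, and 2 members had an unadjusted p under 0.05, against 26.4%. In Myd88KO tracheas 0 members passed the test after injury, against 0.376% of all probes, 3 had an unadjusted p under 0.05, against 19.5%, and 0 had groups that did not overlap, against 3.45%. The injury difference was below 0 for all 12 member probes in both genotypes, against 50% of all tested probes in wild-type and 57.7% in Myd88KO tracheas. Its median was -0.34 in wild-type and -0.56 in Myd88KO tracheas, where the medians over all tested probes were 5.85e-05 and -0.07. Under quantile normalization Tnnc2 turned to 0.07 in Myd88KO tracheas, and without wild-type injured replicate 3 Acta1 turned to 0.14 in wild-type tracheas. Injury shares its uninjured arrays with the genotype comparisons, so these are not separate lines of evidence.

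**Figure D1:**
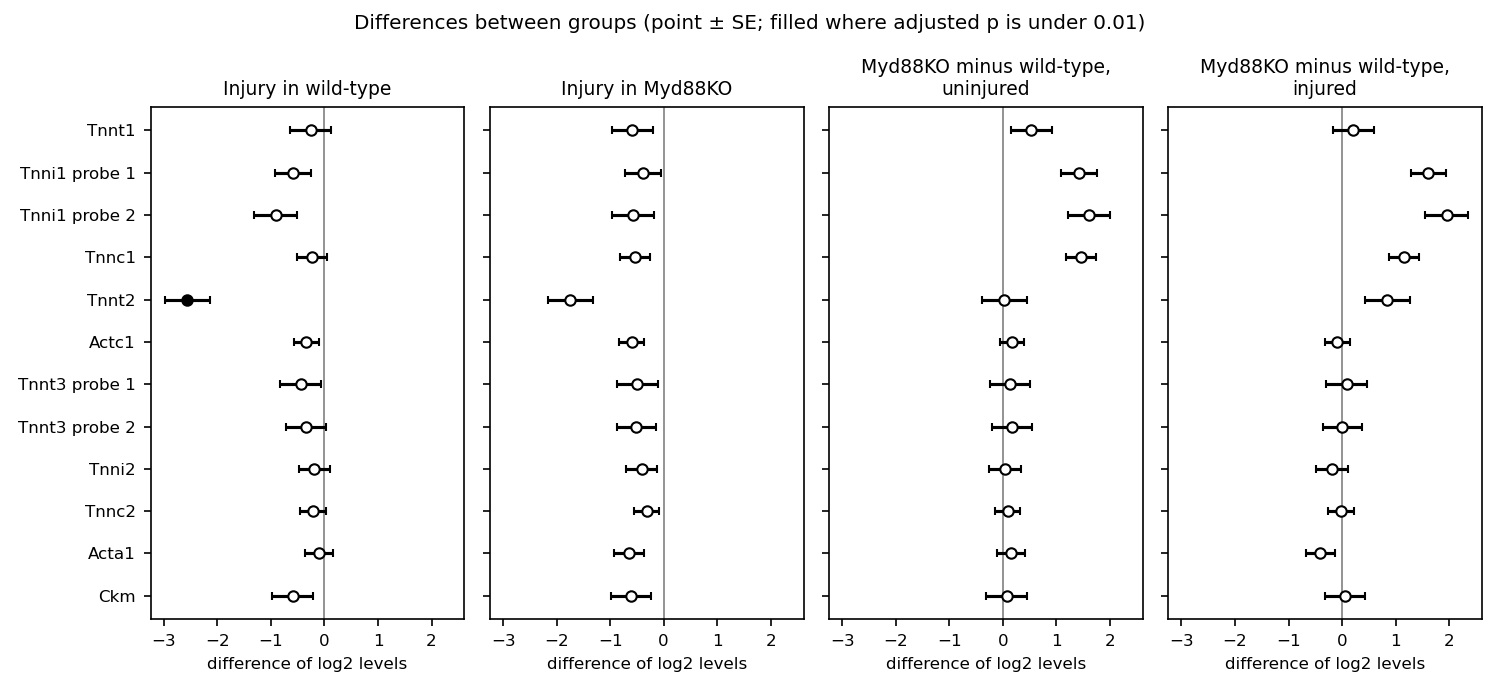
Differences of log2 levels between groups for the 12 tested member probes, as points with bars of 1 SE, in 4 comparisons; a filled point marks a limma adjusted p under 0.01. Tnnt2 is the single filled point, at -2.56 after injury of wild-type tracheas, and the Tnni1 and Tnnc1 probes stand to the right of 0 in both genotype panels.

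Tnnt2 encodes the cardiac form of troponin T, the tropomyosin-binding subunit. Its levels in uninjured wild-type tracheas were 1.94, 1.69, 1.93, 1.67 and 1.55 in replicates 1 to 5, and in injured wild-type tracheas -0.01, -1.13, -1.58, -0.18 and -1.14. Every injured wild-type array lay below every uninjured one, and on each of the 5 slides the injured array was lower, by -3.51 to -1.84. Tnnt2 fell by 2.56 on the log2 scale (SE 0.420, limma adjusted p = 0.000931), which is 5.91-fold, from a mean of 1.75 ± 0.171 to -0.81 ± 0.679 (SD, n = 5). The call held without each of the 20 arrays in turn, with differences of -2.76 to -2.37 and adjusted p of 0.000156 to 0.00327.

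In uninjured Myd88KO tracheas Tnnt2 lay at 2.48, 1.75, 1.96, 1.47 and 1.26, and in injured Myd88KO tracheas at 1.12, -0.79, -0.32, -1.20 and 1.37. Injured replicates 1 and 5 stayed near the uninjured values, replicate 5 above the lowest uninjured array, while the other 3 reached the injured wild-type range. The difference of -1.75 (SE 0.420, 3.36-fold, limma adjusted p = 0.0303) did not pass the test, and without injured replicate 5, the array with the lowest share of spots above background, it was -2.08 with an adjusted p of 0.00244. With array weights it was -2.27 (adjusted p = 0.000254). The injury responses of the genotypes differed by 0.82 (SE 0.594, adjusted p = 0.628), and Tnnt2 did not pass between genotypes, at 0.03 (adjusted p = 1) without injury and 0.84 (adjusted p = 0.419) after it.

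Some markers of airway secretory cells fell with Tnnt2. The secretoglobin Scgb1a1, the defining product of club cells, fell by 7.91 in injured wild-type (limma adjusted p = 1.05e-05) and by 6.24 in injured Myd88KO tracheas (adjusted p = 0.00069, with replicate 5 left out as an outlier spot). Of the 13 probes for 11 airway epithelial genes, 3 passed as lower in wild-type tracheas (Scgb1a1, Scgb3a2 and Bpifa1) and 2 in Myd88KO tracheas (Scgb1a1 and Bpifa1). Over all tested probes 2.03% passed as lower in wild-type tracheas, and 0.376% passed in either direction in Myd88KO tracheas. The other airway probes did not pass, with differences above 0 for 4 of the 13 in wild-type tracheas (up to 1.14) and 5 in Myd88KO tracheas (up to 0.80), and the medians of the list were -0.22 and -0.24. Summed levels of the 13 probes on the linear scale ranged from 2100 to 3290 in uninjured and 1130 to 1550 in injured wild-type arrays, and from 1970 to 3000 and 1170 to 1900 in Myd88KO arrays. The probe for Tnnt2 correlated with Scgb1a1 at r = 0.938 over 19 arrays and at 0.596 in deviations from the 4 group means, a pair chosen after its values were seen. Points in such comparisons share arrays and group means. In a whole trachea, fewer cells of a type and less RNA per cell cannot be told apart, and the part of epithelial loss in the Tnnt2 values was not tested.

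The second Tnnt2 probe was not well above background except on uninjured wild-type replicate 3, where it read -4.35 against -6.37 or lower on the other arrays of that group, and it was not tested. Tnni3, the cardiac troponin I gene and no member, differed by -0.88 and -0.78 on its probes in injured wild-type tracheas. Neither passed (limma adjusted p = 0.154 and 0.232).

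Tnnc1 encodes the troponin C shared by slow skeletal and cardiac muscle. Uninjured wild-type arrays read -3.66, -3.98, -4.79, -3.97 and -4.48, and uninjured Myd88KO arrays -2.33, -2.97, -3.27, -3.23 and -1.75. Every uninjured Myd88KO array was above every uninjured wild-type array, and this held on all 5 slides with differences of 0.739 to 2.74. The difference of 1.47 (SE 0.282, 2.76-fold) had a limma adjusted p of 0.0121 and missed the threshold, and it passed with the slide as a block (adjusted p = 0.00695), with scan day blocked (0.00492) and under array weighting (1.25, adjusted p = 0.00798).

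After injury Tnnc1 read -4.29, -4.32, -4.79, -4.41 and -4.20 in wild-type and -3.73, -2.86, -3.51, -3.39 and -2.76 in Myd88KO tracheas. The groups again did not overlap. The difference was 1.15 (SE 0.282, 2.23-fold, limma adjusted p = 0.0667), with Myd88KO higher on all 5 slides. The probe was dim, well above background on 4 arrays of each wild-type group and on all 5 of each Myd88KO group, and with normexp background correction the genotype differences were 0.67 without injury (adjusted p = 0.307) and 0.44 after it (adjusted p = 0.430).

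Tnni1, the slow skeletal troponin I gene, had 2 tested probes. Probe 1 read -3.55, -3.19, -2.02, -3.69 and -3.73 in uninjured wild-type and -1.42, -2.05, -2.02, -2.28 and -1.33 in uninjured Myd88KO tracheas. The groups touched only through wild-type replicate 3, which lay level with the middle of the Myd88KO values. The difference was 1.42 (SE 0.335, 2.68-fold, limma adjusted p = 0.0691, and 0.124 with the slide as a block), and without wild-type replicate 3 it was 1.72 with an adjusted p of 0.00514.

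After injury probe 1 of Tnni1 read -3.42, -3.95, -4.65, -3.53 and -3.56 in wild-type and -2.86, -1.63, -2.52, -2.44 and -1.59 in Myd88KO tracheas, with no overlap. The difference of 1.61 (SE 0.335, 3.06-fold, limma adjusted p = 0.0236) missed the threshold. Probe 2 gave 1.61 (3.06-fold, adjusted p = 0.0926) without injury and 1.95 (3.87-fold, adjusted p = 0.0204) after it, again without overlap after injury. It was well above background on 2 uninjured and 1 injured wild-type arrays and on all 10 Myd88KO arrays, so that its wild-type values are close to the background. With normexp correction the probes gave 0.80 and 0.71 without injury and 0.85 and 0.55 after it.

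Tnnt1, the slow skeletal troponin T gene, ranged from 2.02 to 3.22 in uninjured wild-type and from 2.64 to 4.03 in uninjured Myd88KO tracheas, and these ranges overlapped. Its genotype differences of 0.53 without injury (limma adjusted p = 1) and 0.21 after it (adjusted p = 0.870) did not pass, and neither did its injury differences of -0.26 and -0.58. Of the 3 slow troponin genes, Tnnt1 was the only one with overlapping genotype groups after injury.

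Between uninjured genotypes 0 of the 12 member probes passed the test, against 0.384% of all tested probes. Groups did not overlap for 1 member, Tnnc1, against 2.51% of all probes, and 3 probes, of Tnnc1 and Tnni1, had an unadjusted p under 0.05, against 5.59%. Between injured genotypes 0 members passed, against 0.38%, while 3 probes of the same 2 genes did not overlap, against 1.96%, and 3 had an unadjusted p under 0.05, against 12.5%. The 3 probes of each comparison include both Tnni1 probes, which correlated at r = 0.974 over 20 arrays. Tnni1 probe 2 reached the filter through the Myd88KO groups, with 2 uninjured and 1 injured wild-type arrays among its 13 well above background. These counts are therefore not of separate members. A difference in injury response between genotypes passed for 0 members and for 0% of all probes, and 0 members had an unadjusted p under 0.05, against 10.4%. All 12 member probes were higher in uninjured Myd88KO tracheas under the 75th percentile, against 56.7% of all tested probes, and under median scaling. However, 4 turned under quantile normalization and 1, for Tnni2, under array weights, so that the direction of the small differences depends on the scaling.

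**Figure D2:**
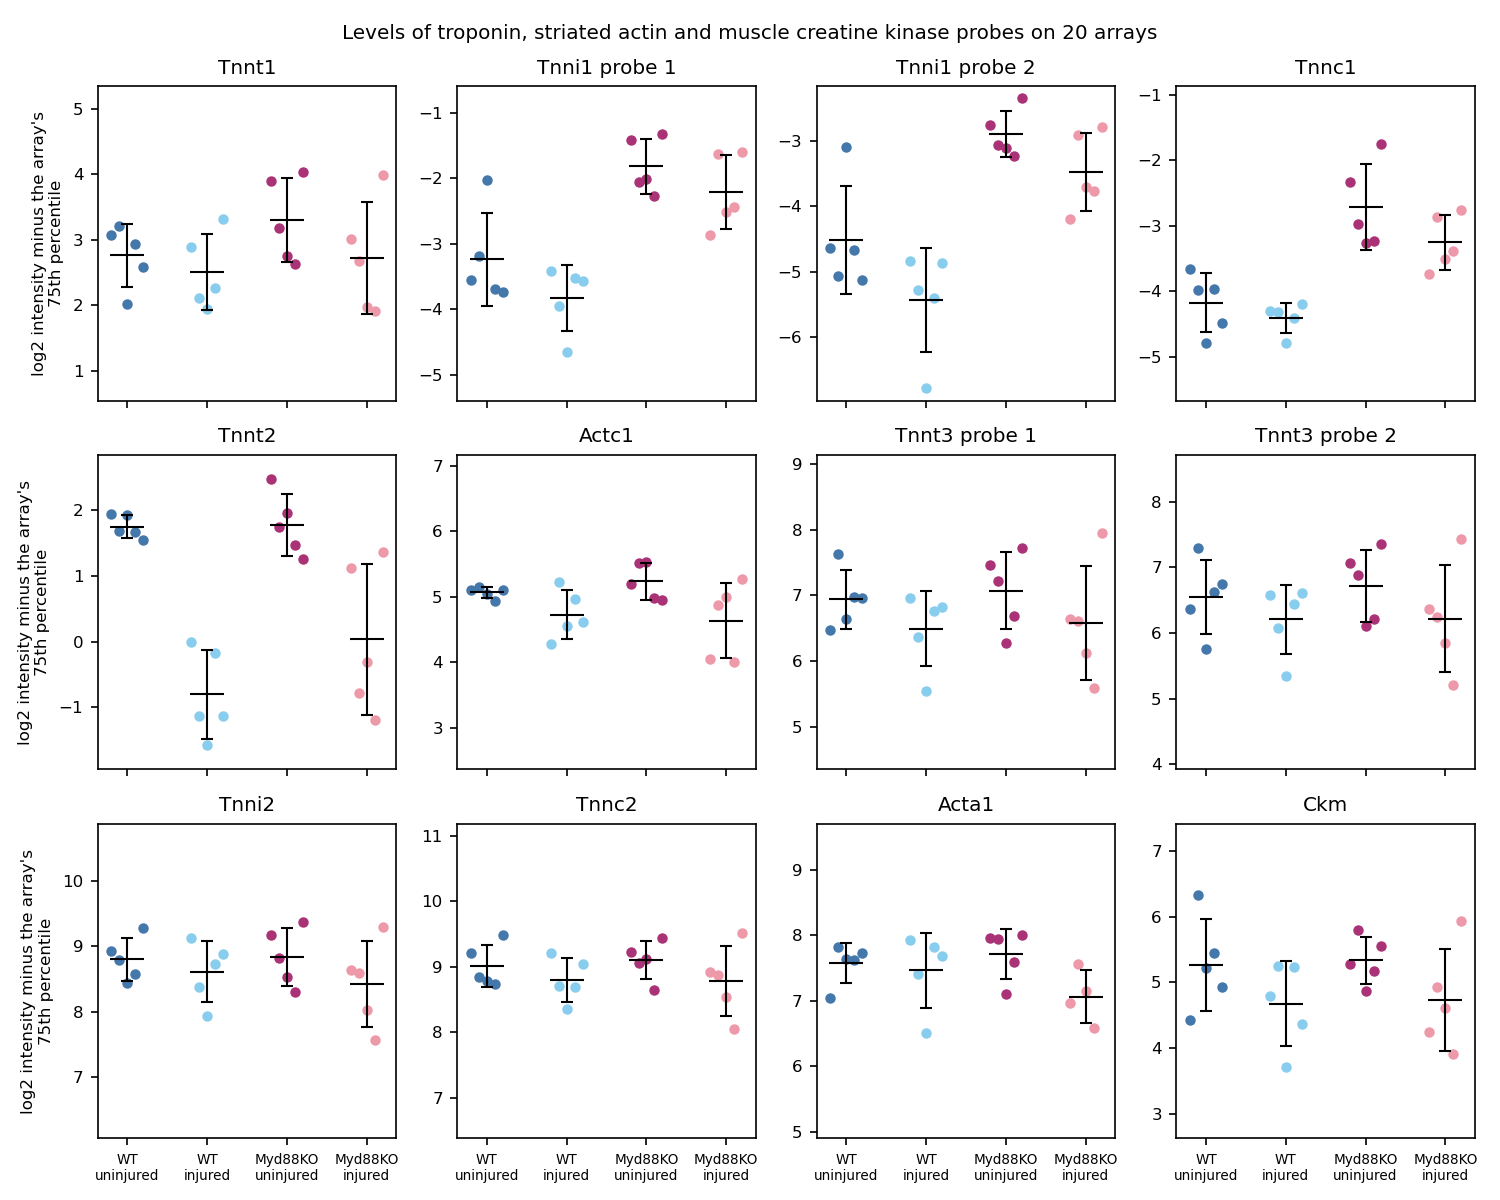
Level of each tested member probe on each array (points, in log2 intensity minus the 75th percentile of the array) in the 4 groups, with the mean (long bar) and SD (error bars), n = 5 except for Acta1 in injured Myd88KO tracheas, n = 4. Tnni1 and Tnnc1 stand higher in Myd88KO tracheas after injury with no overlap, Tnnt2 stands lower after injury, and the fast-muscle members spread widely within every group.

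Other genes of slow and cardiac muscle were read from a list of 19 genes, of which 18 were tested with 26 probes. Between genotypes 3 of these probes passed without injury, against 0.384% of all tested probes, and 3 after it, against 0.38%. All were higher in Myd88KO tracheas. They belonged to Myh7, the slow and beta-cardiac myosin heavy chain, and Myh6, the alpha-cardiac heavy chain. The 2 probes for Myh7 were higher in Myd88KO tracheas by 2.22 each without injury (limma adjusted p = 3.75e-05 and 8.18e-05) and by 1.97 and 2.04 after it. One of the 2 Myh6 probes was higher by 1.74 (adjusted p = 0.000757) and 1.67 (adjusted p = 0.00124), with 3 of the 5 arrays of each wild-type group and all Myd88KO arrays reading it well above background. The other differed by 1.68 (adjusted p = 0.015) and 1.62 (adjusted p = 0.0205) and did not pass. It was dimmer, well above background on 2 uninjured and 1 injured wild-type arrays and on all 5 of each Myd88KO group. The list's median genotype difference was 0.02 without injury and -0.02 after it, beside 0.04 and -0.03 over all tested probes. These 2 heavy chains are close relatives in sequence and signal shared between their probes was not tested.

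Myh7 lay at 1.09, 1.12, 0.26, 1.53 and 1.23 in uninjured wild-type arrays and at 3.43, 2.81, 3.07, 3.05 and 3.99 in uninjured Myd88KO arrays. The groups were clearly apart, as were the injured ones, at -0.10 to 0.94 and 2.13 to 2.98. Tnnc1 correlated with Myh7 at r = 0.927 over 20 arrays and at 0.71 in deviations from group means. Over the arrays this was the highest r of any tested gene outside the members, and the pair was chosen after its values were seen. Nnt (0.916) and Eif2s2 (0.911) came next over the arrays. In deviations Myh7 was not among the 10 genes most like Tnnc1, which ran from Lcmt1 at 0.837 down to 0.771. Tnni1 correlated with Myh7 at 0.794 over the arrays but at -0.01 in deviations, so that the likeness lay between the groups. Within the same list Myl2, the slow regulatory light chain, differed by 0.84 without injury (limma adjusted p = 0.952) and 1.36 after it (adjusted p = 0.189), Myl7 by -1.07 without injury (adjusted p = 0.650) and Pln by 0.97 after it (adjusted p = 0.105), and none of these passed.

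Adipocyte markers were read beside the slow troponins because trimmed connective tissue can hold fat. Of their 9 probes, 8 were higher in uninjured Myd88KO tracheas, against 56.7% of all tested probes, and 4 did not overlap, against 2.51%. Of the 9, 0 passed the test, against 0.384% of all tested probes, with 2.61 for Elovl3 (limma adjusted p = 0.121), 2.42 for Ucp1 (adjusted p = 0.199) and 1.54 for Cidea (adjusted p = 0.233). After injury 7 of the 9 were higher in Myd88KO tracheas, against 45.3% of all tested probes, and 0 did not overlap, against 1.96%. Again 0 passed, against 0.38% of all tested probes, with 3.30 for Elovl3 (limma adjusted p = 0.0199, and 0.00293 with the slide as a block) and 2.11 for Ucp1 (adjusted p = 0.195). Their summed level ranged from 385 to 705 in uninjured wild-type and 685 to 1180 in uninjured Myd88KO arrays, and from 215 to 676 and 335 to 1030 in injured arrays. A further probe of the list, for Lep, was well above background on 6 arrays, none of them injured wild-type, and was not tested. Whether the amount of tissue attached to the trachea has a part in the Tnnc1 and Tnni1 differences was not tested.

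Fast skeletal muscle was represented by Tnnt3, Tnni2 and Tnnc2, the fast forms of the 3 troponin subunits, by Acta1, the skeletal muscle actin, and by Ckm. Injury differences of their 6 probes ran from -0.59 to -0.10 in wild-type tracheas, where the lowest limma adjusted p was 0.341. In Myd88KO tracheas they ran from -0.65 to -0.32, and the lowest adjusted p was 0.204. Genotype differences ran from 0.04 to 0.17 without injury and from -0.40 to 0.09 after it, where the lowest adjusted p was 0.582. None passed a test.

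Tnnc2, the fast calcium-binding subunit, read 9.21, 8.84, 8.78, 8.74 and 9.49 in uninjured and 9.21, 8.70, 8.36, 8.69 and 9.04 in injured wild-type tracheas. In Myd88KO tracheas it read 9.23, 9.06, 9.13, 8.65 and 9.44 before and 8.93, 8.88, 8.54, 8.05 and 9.51 after injury. All 4 groups overlapped and the highest single reading was in an injured Myd88KO trachea. Tnni2, the fast inhibitory subunit, ranged from 7.57 to 9.30 in injured Myd88KO tracheas alone, a 3.32-fold spread, and from 8.44 to 9.28 in uninjured wild-type tracheas.

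Tnnt3 probe 1, for the fast tropomyosin-binding subunit, spanned 6.48 to 7.64 in uninjured wild-type and 5.59 to 7.95 in injured Myd88KO tracheas, and its second probe gave like ranges of 5.75 to 7.29 and 5.21 to 7.43. Ckm, which encodes the muscle creatine kinase subunit, spanned 4.42 to 6.33 in uninjured and 3.72 to 5.25 in injured wild-type tracheas, and its difference of -0.59 (SE 0.380) was the farthest from 0 of the fast members in wild-type tracheas. Acta1 differed by -0.65 (SE 0.277) in Myd88KO tracheas with injured replicate 5 left out as an outlier spot, and by -0.46 (limma adjusted p = 0.398) with it kept.

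Actc1, the cardiac actin that is also made in developing and regenerating skeletal muscle, stood at 5.11, 5.15, 5.04, 4.94 and 5.10 in uninjured wild-type tracheas. In injured wild-type tracheas it stood at 4.28, 5.23, 4.56, 4.97 and 4.61. The uninjured wild-type arrays were within 1.15-fold of each other, and the injured ones spread around and below them. The difference was -0.34 (SE 0.231, limma adjusted p = 0.377) in wild-type and -0.60 (adjusted p = 0.161) in Myd88KO tracheas.

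The fast-muscle members varied together from array to array within groups. Among the 14 pairs of probes of different fast genes, deviations from the group means correlated at 0.331 to 0.953 with a median of 0.733, and Tnni2 with Tnnc2 gave the top value. Injured wild-type replicate 3 was the lowest array of its group for 5 of 5 fast genes, and so was injured Myd88KO replicate 4, while injured Myd88KO replicate 5 was the highest for 4 of the 4 fast genes measured on it. Tnnt1 with the fast members gave a median of 0.803 over 6 pairs, whereas Tnni1 gave 0.4, Tnnc1 0.535, Tnnt2 0.555 and Actc1 0.259. Tnnt1 followed the fast troponins more closely than Acta1 (0.464) or Ckm (0.432), and it gave 0.736 with the slow gene Tnnc1. These are descriptions over the 20 arrays, or 19 where Acta1 is one of the pair, and the probes of an array share its RNA and its scaling.

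**Figure D3:**
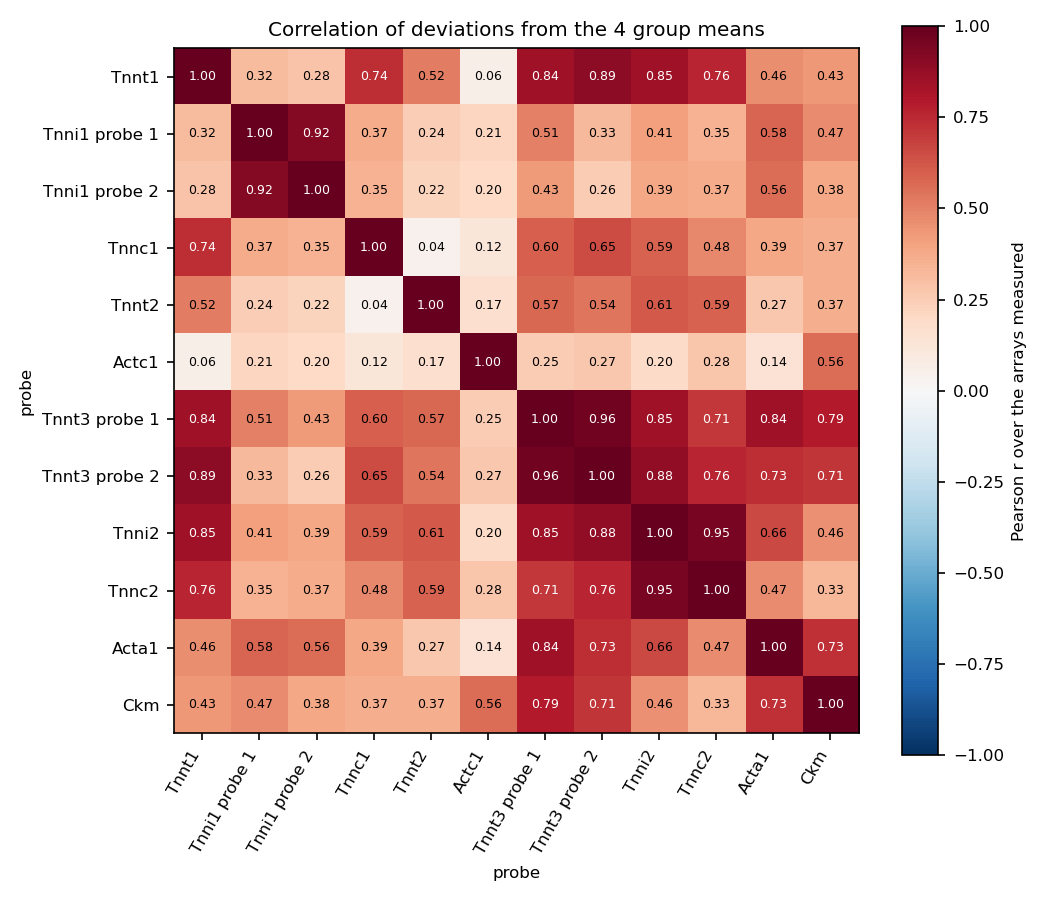
Pearson correlation of deviations from the 4 group means between the 12 tested member probes, over 20 arrays, or 19 for Acta1; red marks positive values. The block of Tnnt1, Tnnt3, Tnni2 and Tnnc2 lies between 0.71 and 0.96, while Actc1 has pale cells with nearly all others.

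Likeness to the mean of the 10 members was described over the 20 arrays. The 10 genes most alike were Dpf3 (r = 0.938), Wdr22, 2310079P10Rik, Cpt1b (0.93), Slc2a4, Kcnn1, Macrod1, Myh4, A930013K19Rik and Cib2 (0.92). In deviations from the group means they were Pgam2 (0.961), Hspb2 (0.96), Smarcd3, Neurl2, Aldoa (0.955), D830039M14Rik, Helt, Macrod1, Bin1 and A930016O22Rik (0.951). The order of such close values carries no weight.

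**Figure D4:**
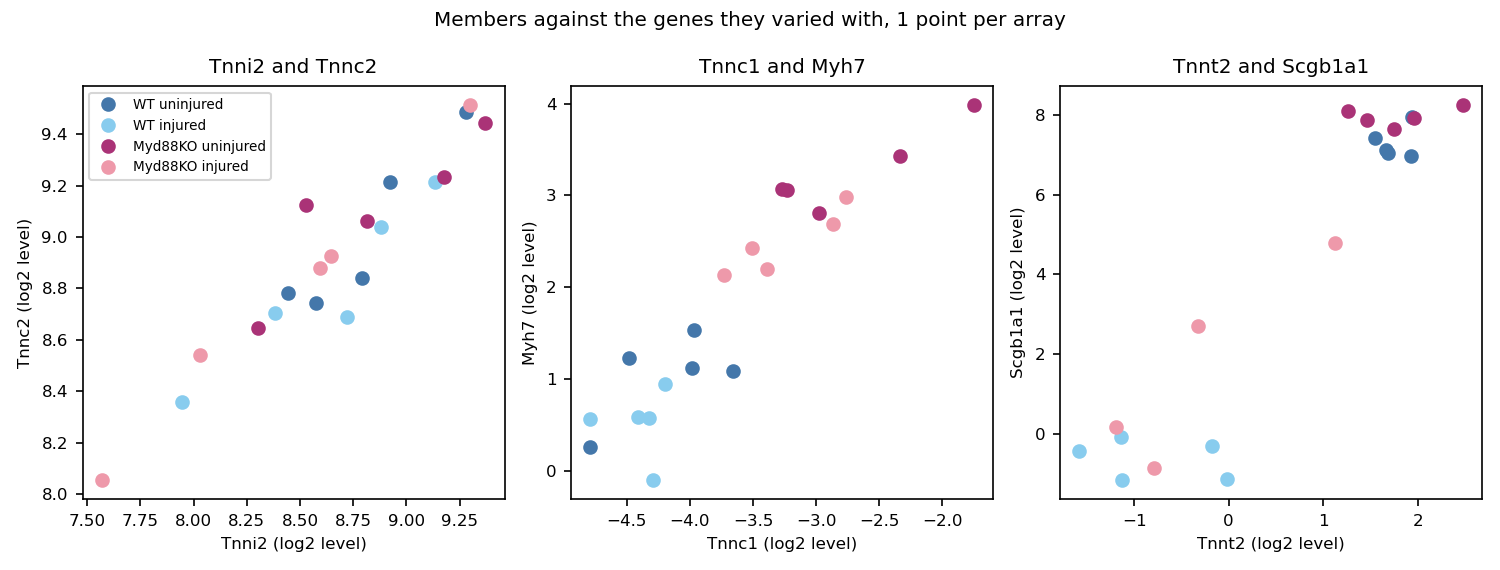
Log2 levels of Tnnc2 against Tnni2, Myh7 against Tnnc1 and Scgb1a1 against Tnnt2, 1 point per array coloured by group (19 points for Scgb1a1). The first pair spreads along 1 line with the groups mixed and the second separates the genotypes. The third separates injured from uninjured tracheas, with injured Myd88KO replicates 1 and 3 between them in Scgb1a1 (4.79 and 2.72). Injured Myd88KO replicate 5 has no Scgb1a1 value and is not shown, and its Tnnt2 level of 1.37 lay in the uninjured range.

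Troponin genes lie in pairs on mouse chromosomes, an inhibitory beside a tropomyosin-binding subunit. Tnni2 and Tnnt3, with array probes 68.0 kb apart on chromosome 7, correlated at 0.85 over the arrays and 0.851 in deviations. Tnni1 and Tnnt2, with array probes 42.7 kb apart on chromosome 1, correlated at 0.425 and 0.244. These are values of 2 pairs over the same 20 arrays and their difference was not tested.

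The sarcomere partners of the members, 30 tested genes with 59 probes, included 1 probe that passed in any comparison, for the tropomyosin gene Tpm3. It rose by 0.76 after injury of wild-type tracheas (limma adjusted p = 0.00311), where 5.26% of all tested probes passed, and was chosen after its values were seen. Injury differences of the list were below 0 for 54 of 59 probes in wild-type (median -0.47) and 46 of 59 in Myd88KO tracheas (median -0.26). Over all tested probes 50% and 57.7% were below 0, with medians of 5.85e-05 and -0.07. The farthest from 0 in wild-type tracheas were Xirp2 at -1.66, the neonatal myosin gene Myh8 at 1.04, the giant filament gene Ttn at -0.91 and Mylk2 at -0.82, and in Myd88KO tracheas Myh8 at -0.87, Lmod3 at -0.69, Myoz1 at -0.65 and Mylpf at -0.60. None of these 8 differences passed. Each gene is given by its probe with the largest difference, and the tested Myh8 probes were well above background on 11 and 20 arrays.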

How the data were processed

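RNA of 20 whole tracheas was hybridized by the authors to 1-colour Agilent whole mouse genome arrays. The deposited intensity of each spot came from Feature Extraction 9.5.1.1 (protocol GE1-v5_91_0806), which subtracts the background and gives spots not above it a surrogate value, and arrays were not scaled to one another. A second deposited table repeated these intensities, at 0.995 to 1.00 of the scanner value, and the genome build is not given in the sources used here. Of 45018 spots per array 1639 were controls, and 1960 outlier values were left out.

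Spots of a probe were averaged, log2 intensities were taken relative to the 75th percentile of the array, and 26063 probes well above background on at least 10 arrays were tested. All 20 arrays were fitted together in limma 3.58.1 (R 4.3.3, statmod 1.5.0), with 5 contrasts, adjusted p by Benjamini-Hochberg within each over all tested probes, and a threshold of 0.01. The number of arrays, 5 per group, limits the precision. P-values measure the spread between separately prepared tracheas. The test was checked on simulated data. No column belonged to samples outside the study.

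All member probes are named. Of each gene list up to 4 genes with the largest differences are named, with the 10 genes most like the members, and any other gene is marked as picked with its values in view. Members and lists were chosen with earlier results of these data known. Replicate numbers share a slide and not an animal. Alternatives were normexp background correction, quantile and median scaling, filters on dim probes, outliers kept, slide and scan day as blocks, only the groups compared, array weights, the value table, the methods' one-way test, a trended robust spread, and leaving out each array.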

Additional observations from a re-analysis of the deposited data

Results flagged for a closer look

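In 4 of 52 tests of a member probe within a group of 5 arrays, 1 array stood far from the others, and chance alone gives about 1 in 20. The second Tnni1 probe read -3.09 in uninjured wild-type replicate 3, above the next array at -4.63, and -6.78 in injured wild-type replicate 3, below the next at -5.39. Both arrays lie on the same slide. The untested second Tnnt2 probe read -4.35 in uninjured wild-type replicate 3, above -6.37 in the next array. Acta1 read 7.04 in uninjured wild-type replicate 1, below the next at 7.62.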

How the results depend on the processing

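Tnnt2 passed after injury of wild-type tracheas under all 13 alternatives and without each array. With the slide as a replicate block 1 member (Tnnc1) and with the scan day as a block 1 member (Tnnc1) passed between uninjured genotypes, and array weights gave 2 there, 2 between injured genotypes and 1 (Tnnt2) for injury in Myd88KO tracheas. Leaving out 1 array gave 0 to 2, 0 to 2 and 0 to 1 members in these comparisons, the 2 being the Tnni1 probes without uninjured wild-type replicate 3 and the 1 being Tnnt2 without injured Myd88KO replicate 5. Over all probes, the count for injury in Myd88KO tracheas was 56 under median scaling, 60 without a filter, 361 with the scan day, 0 with only the groups compared, 1904 with array weights and 0 by the methods' one-way test, and 6 to 1075 without 1 array, 1075 being without injured replicate 5. Injury in wild-type tracheas gave 2106 with the scan day, 2599 with array weights and 665 to 1843 without 1 array. Uninjured genotypes gave 63 with probes above background on all arrays, 176 with weights and 46 by the one-way test, and injured genotypes 63, 38 with only the groups compared and 21 by the one-way test. The difference of responses gave 1 with the slide block, 2 with the scan day, 3 with weights and 0 to 3 without 1 array. Quantile normalization turned the sign for Tnnc2 (0.069 for injury in Myd88KO, -0.017 and 0.11 between uninjured and injured genotypes, 0.13 for the difference of responses), Tnnt2 (-0.015), Ckm (-0.0024) and Tnni2 (-0.035) between uninjured genotypes, Actc1 between injured genotypes (0.027), and Tnnt3 (0.18 and 0.026) and Ckm (0.17) for the difference of responses. Normexp gave 0.018 for Tnnc2 between injured genotypes and -0.16 for Tnni1 probe 2 in the difference of responses. Array weights gave -0.0029 for Tnni2 between uninjured and -0.13 and -0.21 for Tnnt3 and -0.14 for Tnnt1 between injured genotypes. Without 1 array, Acta1 ran from -0.24 to 0.14 for injury in wild-type tracheas. Between uninjured genotypes Tnnt2 ran from -0.15 to 0.16, Ckm from -0.14 to 0.33, Tnni2 from -0.10 to 0.17 and Tnnt3 from -0.027 to 0.34 and -0.035 to 0.35. Between injured genotypes Actc1 ran from -0.25 to 0.069, Ckm from -0.25 to 0.26, Tnnc2 from -0.20 to 0.16, Tnni2 from -0.40 to 0.030, Tnnt1 from -0.11 to 0.41 and Tnnt3 from -0.25 to 0.34 and -0.30 to 0.26. For the difference of responses Ckm ran from -0.32 to 0.20, Tnnc2 from -0.29 to 0.075, Tnni1 from -0.11 to 0.36 and -0.016 to 0.52, and Tnnt3 from -0.39 to 0.20 and -0.47 to 0.091. The cause of these changes was not tested. Deviations of same-numbered arrays correlated at -0.262 to 0.476 (median 0.242, 23 of 30 over 0.1), and 10 of 20 arrays correlated best with their own number. Low signal limits Tnnc1, well above background on 4 of 5 arrays in each wild-type group, and Tnni1 probe 2, on 2 and 1, whereas Tnni1 probe 1 was well above background on all 20 arrays.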

Other observations

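Lists of genes around the contractile apparatus were followed in the same way, and 0 probes passed the test in any of the 5 comparisons for calcium release and excitation (19 genes, 27 probes), muscle energy metabolism (18 genes, 21 probes) and myogenic regulators (13 genes, 22 probes). Over all tested probes 0% to 5.26% passed in these comparisons. After injury of wild-type tracheas the farthest differences from 0 were -1.80 for Chrne, a subunit of the muscle acetylcholine receptor, -1.60 for Trdn, -0.89 for Casq1, the calcium store protein of fast muscle, and -0.72 for Pvalb. Those of the energy list were -1.01 for Phka1, -0.89 for Fabp3, -0.85 for Cox7a1 and -0.77 for Ckmt2, the mitochondrial creatine kinase of muscle. Among myogenic regulators, Megf10 gave -0.76, Vgll2 -0.73, Six4 -0.72 (limma adjusted p = 0.0118) and Myod1, the master regulator of muscle fate, -0.68. In Myd88KO tracheas the lowest adjusted p of these lists was 0.0320, for Megf10 at -0.97, followed by Ldhb at -1.03 (0.0336). Myf5, Pax3 and Musk were well above background on no array.

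Of 15 probes for smooth muscle and non-striated actins, 2 passed between uninjured genotypes, against 0.384% of all tested probes. Between injured genotypes 2 passed, against 0.38%. For Myocd, the smooth and cardiac muscle coactivator, 1 probe passed in each of these comparisons. It was higher in Myd88KO tracheas, by 1.63 (limma adjusted p = 4.13e-05) without injury and 1.25 (adjusted p = 0.0011) after it. The other tested Myocd probe of each comparison did not pass. For cytoplasmic actin, Actb, one probe was lower by -0.73 without injury (adjusted p = 0.00602) and another by -1.54 after it (adjusted p = 0.000926). No probe of the cartilage, thyroid, oesophagus-type epithelium or peripheral nerve lists passed in any of the 5 comparisons, where 0% to 5.26% of all tested probes passed.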
